A study of Mus musculus with 8 samples.

Results

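The genes described here encode the machinery of cell division: the cyclins and kinases that start mitosis, the kinetochores and spindle motors that move chromosomes, the checkpoint that delays their separation, and the proteins that cut the cell apart afterwards. They were a named set of 38 genes, matched by symbol to array probe sets that carry a single gene symbol. Of these 38, 36 were measured, out of 22180 genes on the array. Ccnb1, a B-type cyclin, had no entry in the annotation table used, and Ncapg, a condensin subunit, had only a probe set shared with Lcorl, which was not used. The rule for membership used gene names only, but the set was chosen with earlier results of these data known. Counts of members set beside the share of all genes are therefore descriptions and not tests.

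Expression was measured on 8 Affymetrix arrays, 2 for each of 4 groups, from cultured mouse melanocytes, the pigment cells of skin and hair. All cells carried loxP-flanked alleles of Atg7 (Atg7 f/f), which encodes an enzyme needed to build autophagosomes. The WT cells had these alleles and no Cre label, and the KO cells had the Tyr::Cre transgene in addition. This transgene is driven by the promoter of tyrosinase and so is meant to act in pigment cells. In which cells of these cultures it acted was not measured here. Cells came from pups aged 1 to 5 days, labelled female, grew for 22 days, received 20 J/cm² of UVA-1 (long-wave ultraviolet light) or a sham treatment, and were lysed 6 h later. The 4 groups are called sham and UVA of WT and of KO, and each has an array numbered 1 and an array numbered 2. The study calls these biological duplicates, but gives no meaning for a number, nor how many pups were pooled, nor whether a sham array and the UVA array of its genotype and number share a culture.

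Mitotic genes are transcribed in a wave late in the cell cycle, so their RNA in a bulk sample is commonly read as a measure of how many cells are dividing. Many of them carry 2 short promoter elements, a CCAAT box, bound by the factor NF-Y, and a cell cycle genes homology region (CHR), bound by the MuvB complex, which represses them in resting cells and activates them in dividing cells. FOXM1, itself a member, is a transcription factor that acts with MuvB at such promoters. Normal melanocytes divide rarely in skin and are driven to divide in culture by growth factors.

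Promoters are shown because the members were found to move together across the arrays. RefSeq promoter windows of 300 bases (250 before the transcription start and 50 after it; GRCm38.p6) were at hand for 30 of the 36 measured members. Both strands were searched for CCAAT and for the CHR, taken as TTTGAA or TTCGAA. Matches of the 2 motifs can overlap: in Cdca8 a CHR at 14 to 19 bases after the start shares its last base with a CCAAT box on the other strand. A CHR was present in 24 of the 30 windows (80%), against 19.4% of all 27025 windows in the table. A CCAAT box was present in 23 (76.7%), against 37.9%. Both were present in 21 (70.0%), against 7.7%. In the part nearest the start (100 bases before to 50 after), 17 members (56.7%) held both, against 2.09% of all windows. The letters TTTGAA made up nearly all CHR matches, in 23 members, and TTCGAA was found in 3. A match is a string of letters and was not tested for binding. The 180 bases from 150 before to 30 after the start are shown for the 4 members with a promoter window and the smallest p in the blocked genotype comparison described further on, with CHR and CCAAT matches on either strand in capitals.
Cdc20 (chr4:118437314-118437493, - strand): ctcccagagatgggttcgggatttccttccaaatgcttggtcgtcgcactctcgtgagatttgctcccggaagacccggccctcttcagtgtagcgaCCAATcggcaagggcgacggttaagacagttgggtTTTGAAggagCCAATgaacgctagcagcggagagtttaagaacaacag
Cenpa (chr5:30666736-30666915, + strand): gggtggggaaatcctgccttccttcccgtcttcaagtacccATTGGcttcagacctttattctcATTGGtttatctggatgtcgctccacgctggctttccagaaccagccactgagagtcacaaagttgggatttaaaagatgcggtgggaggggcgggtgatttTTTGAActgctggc
Ccnb2 (chr9:70421525-70421704, - strand): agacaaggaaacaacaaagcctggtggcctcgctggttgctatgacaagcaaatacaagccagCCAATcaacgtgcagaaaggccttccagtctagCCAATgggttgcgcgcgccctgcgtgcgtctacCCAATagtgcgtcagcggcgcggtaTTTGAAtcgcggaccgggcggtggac
Anln (chr9:22389177-22389356, - strand): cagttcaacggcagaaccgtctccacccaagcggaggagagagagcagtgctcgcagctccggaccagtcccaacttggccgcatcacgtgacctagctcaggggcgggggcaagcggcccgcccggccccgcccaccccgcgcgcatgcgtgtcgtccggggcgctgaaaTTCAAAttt
The Cdc20 promoter held a CHR close before the start, its bases lying 18 to 13 before it, with CCAAT boxes on both sides. The Cenpa promoter held its CHR 17 to 22 bases after the start and its CCAAT boxes, read as ATTGG on the other strand, 109 and 86 bases before it. The Ccnb2 promoter held 3 CCAAT boxes in the stretch shown, at 87, 54 and 21 bases before the start, and a CHR just after the start. The Anln promoter held a CHR on the other strand (TTCAAA) and no CCAAT box in the stretch shown.

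The values are microarray intensities on a linear scale, made by robust multi-array averaging (RMA), which gives all arrays nearly the same overall distribution. The median of all genes lay between 155 and 159 on every array. Values of different probe sets are not comparable with each other, so a gene is compared here only with itself across arrays. Summed intensities of marker lists, given further on, add different probe sets and are weighted toward the brightest of them. Such a sum, too, is compared only with itself across arrays. Sham and UVA arrays of a genotype and number correlated at r = 0.996 to 0.997 over all genes, WT and KO arrays of a number at 0.99 to 0.997, and the 2 arrays of a group at 0.962 to 0.978. Atg7 itself read 989, 1004, 831 and 804 in number 1, and 859, 832, 598 and 602 in number 2, each time with the WT arrays first and sham before UVA. The lowest WT value (832) was thus barely above the highest KO value (831), and the KO-to-WT ratio was 0.763 (adjusted p = 1 in limma, 0.297 once the replicate number was added as a block). Which exons its probes cover is not given in the sources used here, so these values do not check the deletion. Melanocyte markers were present on every array: Tyrp1, a pigment enzyme, read 13781 to 17718, and the lowest value of any of the 12 markers was 360.

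The mitotic genes differed most between the replicate numbers. All 36 measured members were higher in number 2 than in number 1 at an adjusted p below 0.05 (limma with the number as a block; 15.6% of all genes were called higher and 14.7% lower). The median difference was 2.34 log2 units, or 5.07-fold, and the adjusted p-values ran from 6.82e-06 to 0.00103. For each of the 36, all 4 arrays of number 2 lay above all 4 of number 1, which 16.6% of all genes did. This comparison was added after the data were seen. It treats each sham array and its UVA partner as independent, so its p-values are too small where such partners share a culture.

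Values of the 4 arrays of a number are given in that order from here on (sham and UVA of WT, then sham and UVA of KO). Mki67, which encodes the proliferation marker Ki-67 that coats mitotic chromosomes, read 237, 192, 160 and 198 in number 1 and 2886, 2507, 2084 and 1542 in number 2. The lowest value of number 2 was thus far above the highest of number 1, and the difference of 3.49 log2 units (11.3-fold, SE 0.13, adjusted p = 1.97e-05) was the largest of the 36. The group means of log2 Mki67 were 9.69 ± 2.55 and 9.44 ± 2.62 for WT after sham and UVA, and 9.17 ± 2.62 and 9.11 ± 2.09 for KO (SD, n = 2). The SD within each group exceeded every difference between groups. Top2a, the topoisomerase that untangles sister chromatids, read 134, 114, 119 and 111 against 1585, 1256, 872 and 943, a 9.49-fold difference between the numbers. Nek2, a kinase that separates centrosomes, had the smallest difference, 2.92-fold, with 95, 88, 77 and 87 against 292, 284, 220 and 223.

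By role, the difference between the numbers was 8.06-fold at the median of the cyclins and Cdk1, 6.53-fold for the cytokinesis and midzone genes, 5.94-fold for the chromosome condensation genes and 5.19-fold for the kinetochore genes. It was 4.95-fold for the spindle motors and microtubule proteins, 4.45-fold for the mitotic kinases and 3.91-fold for the checkpoint genes. Foxm1 was 3.82-fold higher in number 2, with 187, 194, 165 and 172 against 881, 794, 563 and 554. Members of a role differed among themselves: among the cytokinesis genes, Ect2, which activates the GTPase RhoA at the cell equator, differed 10.8-fold, and Kif20a, a motor of the midzone, 3.55-fold. Among the cyclins and their kinase, Ccna2 differed 10.1-fold, Ccnb2 8.06-fold and Cdk1 3.51-fold. The size also depended on the group: the median ratio of number 2 to number 1 was 7.52 in WT after sham and 5.72 after UVA, and 4.33 and 3.8 in KO.

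**Figure D1:**
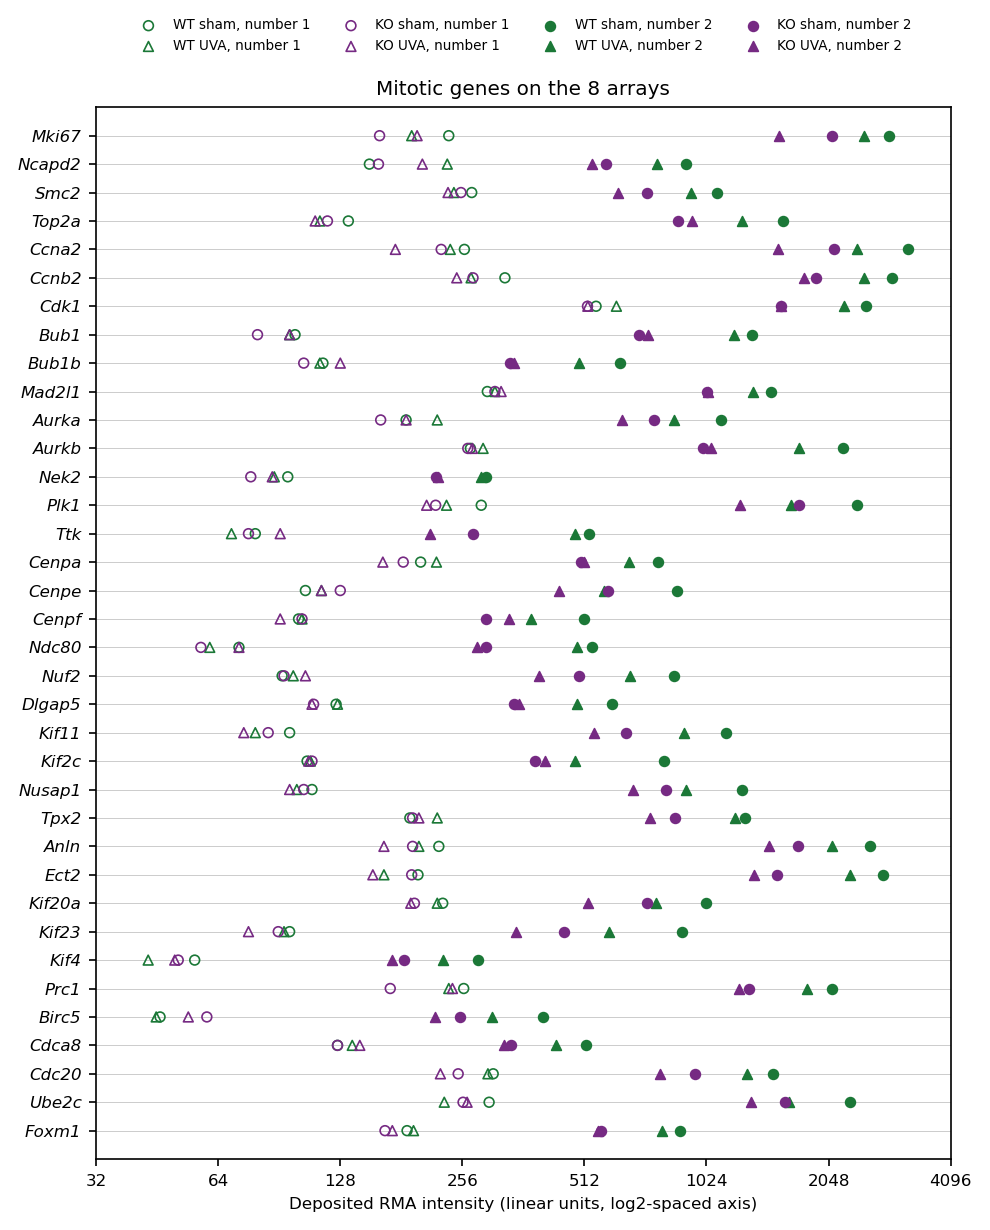
Deposited RMA intensity of each of the 36 measured mitotic genes on each of the 8 arrays, on a log2-spaced axis. Open symbols are arrays of number 1 and filled symbols of number 2, green is WT, purple is KO, circles are sham and triangles are UVA. In all 36 rows every filled symbol lies to the right of every open one.

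Markers of several cell types differed between the replicate numbers, for which 15.6% of all genes were called higher in number 2 and 14.7% lower. The 13 fibroblast markers, all measured, were lower in number 2 (11 past the test, 1 of the others higher by sign, median -1.44 log2 units, 0.369-fold), and their summed intensity was 52754 to 55973 on the arrays of number 1 and 10199 to 23609 on those of number 2. Of the defining fibroblast markers, the matrix gene Dcn read 7864 to 9101 in number 1 and 1949 to 4813 in number 2. The 12 melanocyte markers were all higher in number 2 past the test (median 1.12, 2.17-fold), with summed intensity of 58183 to 62129 in number 1 and 92129 to 108983 in number 2. Of 8 endothelial markers 2 were higher and 3 lower past the test, among the latter Emcn (0.191-fold). The sums of the 8 were 1580 to 1845 in number 1 and 1136 to 1213 in number 2. Of 7 measured Schwann cell markers 3 were higher, among them Cdh19 (3-fold), and 1 lower, Egr2 (0.292-fold), with sums of 6989 to 8602 and 8942 to 9722. Of 8 measured myeloid markers 1 was higher (12.5%) and 2 lower (25%), with sums of 1076 to 1251 and 1328 to 2674. Of 9 measured keratinocyte markers 1 was higher (11.1%), and 0 of 7 mast cell and 8 skeletal muscle markers passed. The sums of these lists over all arrays were 906 to 1090, 195 to 212 and 941 to 1163. The lowest value of any probe set on an array was 7, and mast cell markers read as low as 11. A value above 0 therefore does not show that a cell type was present. In bulk RNA, a smaller number of dividing cells and less mitotic RNA in each dividing cell cannot be told apart, and the part of the cell mixture in the mitotic values was not tested.

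The genotype comparison asked whether melanocytes with the Cre transgene, labelled autophagy deficient, differ from competent ones. Averaged over sham and UVA, all 36 members were lower in KO than in WT by sign (54.1% of all genes were lower), with a median difference of -0.37 log2 units, a ratio of 0.773. The median of all genes was -0.01. The members' differences ran from -0.53 for Kif23 to -0.13 for Birc5. None of the 36 passed the adjusted threshold of 0.05 in the fit without a block, nor did any of the 22180 genes (0% called; unadjusted p below 0.05 for 0 members and for 1.17% of genes as lower). With the number as a block the count of members past the test was again 0, beside 7 genes in all (0.00451% of genes called lower and 0.0271% higher), and the smallest adjusted p of a member was 0.307. At an unadjusted p below 0.05, 24 of the 36 were lower with the block, against 3.95% of all genes. The members move together across the arrays, so the 24 are not separate pieces of evidence. This fit too treats a sham array and its UVA partner as independent. All genotype p-values and SEs with the block can therefore be too small where such partners share a culture.

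The difference was not spread evenly over the replicate numbers. In number 1 the median KO minus WT difference of the members was -0.09 log2 units (27 lower and 9 higher), and in number 2 it was -0.59, a ratio of 0.664, with all 36 lower. The members were dimmer in number 1, with values of 43 to 614 against 172 to 3217 in number 2. Whether low signal narrowed the differences seen in number 1 was not tested. In number 2 the ratio after sham ran from 0.45 for Aurkb to 0.753 for Nek2, and after UVA from 0.44 for Ttk to 0.884 for Cenpf. Both KO arrays lay below both WT arrays for 34 members in number 2, where 26.3% of all genes did so; the other 2 were Plk1 and Cenpe. In number 1 this held for 11 members, against 14.2% of all genes. KO was lower by 1.25-fold or more in both treatments for 33 members in number 2 (4.05% of all genes) and for 0 in number 1 (0.401%). No member had all 4 KO arrays below all 4 WT arrays (0.942% of genes did), since WT of number 1 lay below KO of number 2. Within 1 number each genotype has 1 array per treatment, so these values have no test.

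**Figure D2:**
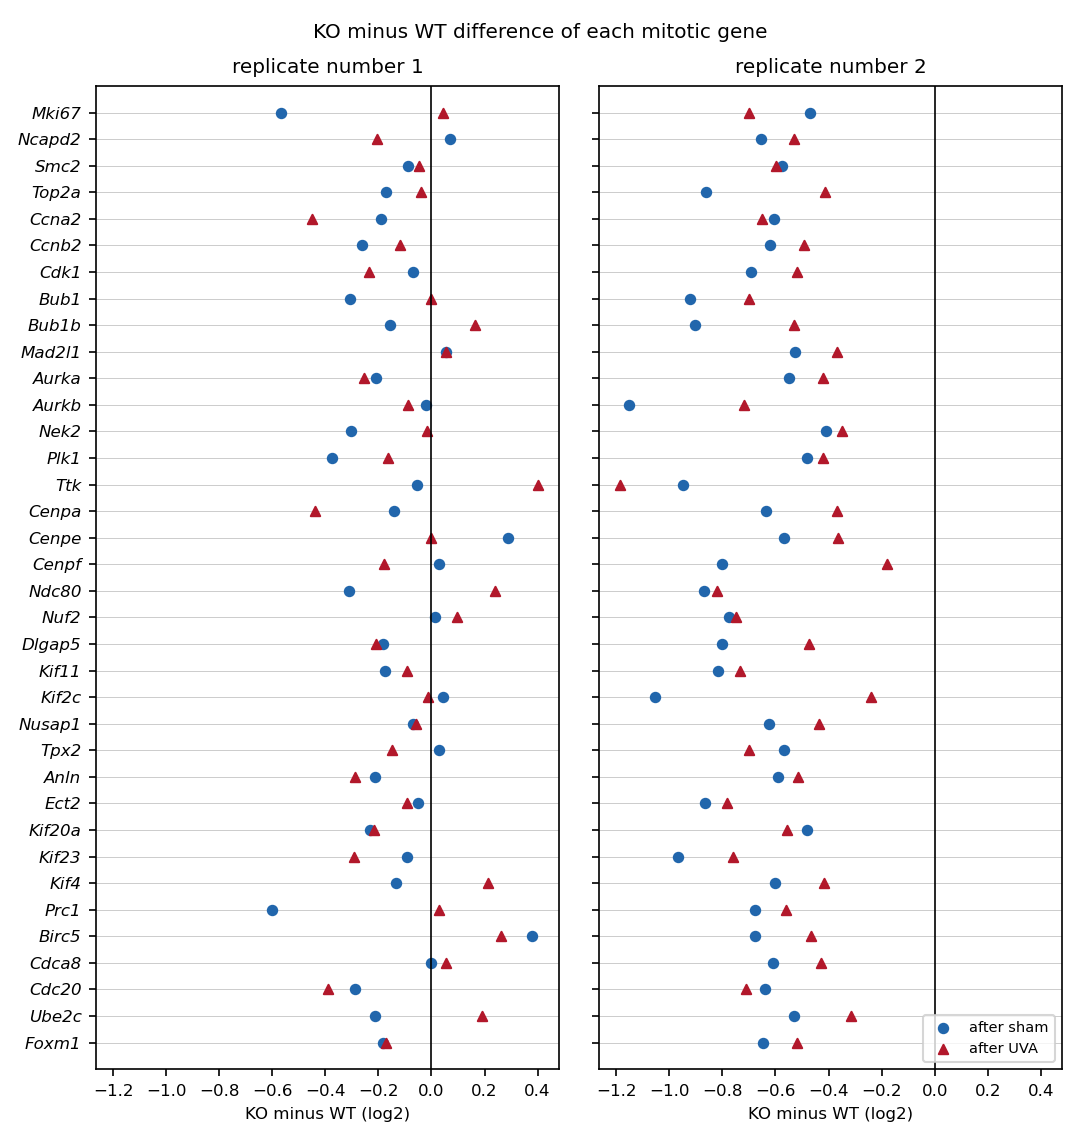
KO minus WT difference of each of the 36 mitotic genes in log2 units, in replicate number 1 on the left and number 2 on the right, after sham (blue circles) and after UVA (red triangles), each from 1 array per genotype. In number 2 every point lies left of the zero line, and in number 1 they lie on both sides of it.

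SEs and p-values of single members, from here to the cytokinesis genes, are from the fit with the block. Without the block the members' SEs for the averaged difference were 0.63 to 1.43 log2 units. The genes that start and drive mitosis were as follows. Ccna2, the A-type cyclin, read 259, 239, 227 and 175 in number 1 and 3217, 2410, 2112 and 1535 in number 2. Each KO array was below the WT array of the same treatment and number, and WT sham was the highest and KO UVA the lowest in both numbers. The averaged difference was -0.47 (SE 0.09, unadjusted p = 0.00138, adjusted p = 0.324 with the block). Cdk1, the kinase that A- and B-type cyclins activate, read 547, 614, 521 and 522, then 2527, 2235, 1564 and 1561, with both KO values below both WT values in each number (-0.38, SE 0.11). Ccnb2, a B-type cyclin, read 326, 269, 272 and 248, then 2932, 2508, 1905 and 1783. KO sham was just above WT UVA in number 1, and the averaged difference was -0.37 (SE 0.09, adjusted p = 0.413). Foxm1 differed by -0.38 (SE 0.10, adjusted p = 0.477), and both of its KO arrays were below both WT arrays in each number.

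Among the kinases, Aurkb, the enzyme of the chromosomal passenger complex, read 268, 288, 264 and 271 in number 1 and 2229, 1732, 1004 and 1052 in number 2. The 4 arrays of number 1 were nearly level and the KO arrays of number 2 were at about 0.45 and 0.607 of WT (averaged -0.49, SE 0.19, adjusted p = 0.548 with the block). Plk1, the polo-like kinase, read 285, 234, 220 and 209, then 2410, 1659, 1727 and 1237. KO sham and WT UVA overlapped in number 2, and the averaged difference was -0.36 (SE 0.09). Ttk, a kinase that starts the spindle checkpoint, read 79, 69, 76 and 91, then 525, 484, 272 and 213, so that KO was higher than WT by 0.17 in number 1 and lower by the most of any member in number 2 (-1.07). Aurka, the centrosomal Aurora kinase, gave -0.23 in number 1 and -0.48 in number 2. Nek2 gave -0.16 and -0.38.

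The 3 checkpoint genes, which hold back chromosome separation until kinetochores are attached, differed among themselves. Bub1, a checkpoint kinase at the kinetochore, read 99, 96, 80 and 96, then 1323, 1196, 698 and 735. Its averaged difference was -0.48 (SE 0.14, adjusted p = 0.495 with the block), from -0.15 in number 1 and -0.81 in number 2. Bub1b, which encodes the checkpoint protein BubR1, gave 0 in number 1 and -0.72 in number 2. Mad2l1, whose protein binds and holds back Cdc20, read 295, 308, 308 and 319, then 1476, 1334, 1026 and 1033. In number 1 KO was slightly above WT, and its averaged difference, -0.20 (SE 0.12, adjusted p = 0.650), was among the 3 smallest. Cdc20, the activator of the anaphase-promoting complex that the checkpoint restrains, read 305, 296, 250 and 226, then 1496, 1289, 960 and 788. Both KO arrays were below both WT arrays in each number (-0.34 and -0.67), and its averaged difference of -0.51 (SE 0.09, unadjusted p = 0.000964, adjusted p = 0.307) had the smallest p of the 36. Its group means were 9.40 ± 1.62, 9.27 ± 1.5, 8.94 ± 1.37 and 8.72 ± 1.27 log2 units (SD, n = 2). Ube2c, the ubiquitin-conjugating enzyme of that complex, gave -0.01 and -0.42.

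Among the centromere and kinetochore genes, Cenpa, the histone variant that marks centromeres, read 202, 221, 183 and 163, then 779, 659, 501 and 511. Both KO arrays were below both WT arrays in each number, by -0.29 and -0.50 log2 units (averaged -0.40, SE 0.09, adjusted p = 0.410 with the block). Ndc80 and Nuf2, partners in the complex that grips microtubule ends, gave -0.04 and 0.06 in number 1 and -0.85 and -0.76 in number 2. Cenpe, a kinetochore motor, read 105, 115, 128 and 115, then 868, 571, 586 and 443. WT UVA and KO sham overlapped in number 2, and the averaged difference was -0.16 (SE 0.17, adjusted p = 0.806). Cenpf, a large kinetochore protein, gave -0.08 and -0.49. Birc5, which encodes survivin, a subunit of the chromosomal passenger complex, read 46, 45, 60 and 54, then 405, 303, 253 and 219. It was higher in KO in number 1 (0.32) and lower in number 2 (-0.57), which left the averaged difference closest to 0 of all members (-0.13, SE 0.19, adjusted p = 0.869). Cdca8, which encodes borealin of the same complex, gave 0.03 and -0.52.

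The spindle motor Kif11, which pushes the poles apart, read 96, 79, 85 and 74, then 1142, 902, 649 and 542. Its averaged difference was -0.46 (SE 0.14, adjusted p = 0.499 with the block), and most of it came from number 2 (-0.78, against -0.13). Kif2c, which shortens microtubules at centromeres, read 106, 108, 109 and 107 in number 1, where no array stood apart, and 805, 484, 387 and 410 in number 2, where WT sham stood above the other 3. Tpx2, which activates Aurora kinase A on spindles, gave -0.06 and -0.63, Nusap1, a microtubule bundler, -0.06 and -0.53, and Dlgap5, a spindle stabiliser, -0.20 and -0.64. Chromosome condensation genes gave like values: the condensin subunits Smc2 and Ncapd2 differed by -0.07 and -0.06 in number 1 and by -0.59 each in number 2, and Top2a by -0.10 and -0.64. Mki67 differed by -0.26 and -0.59 (averaged -0.42, SE 0.13, adjusted p = 0.505).

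Among the cytokinesis genes, Kif23, the motor of centralspindlin, read 96, 93, 90 and 76, then 892, 589, 456 and 348. WT was above KO in all 4 pairs, and the averaged difference of -0.53 (SE 0.16, adjusted p = 0.504 with the block) was the largest of the 36. Anln, which encodes the contractile-ring scaffold anillin, read 224, 200, 193 and 164, then 2589, 2086, 1719 and 1460. The 4 arrays kept the same order in both numbers, and the difference was -0.40 (SE 0.08, unadjusted p = 0.00215, adjusted p = 0.356). Prc1, the bundler of midzone microtubules, read 258, 237, 170 and 242, then 2085, 1815, 1305 and 1233. In number 1 KO sham alone was low (averaged -0.45, SE 0.12). Ect2 gave -0.07 and -0.82 in the 2 numbers, Kif20a -0.22 and -0.52, and Kif4, a chromosome-bound motor, 0.04 and -0.51.

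KO lay below WT in all 4 pairs of arrays for 19 members, against 7.78% of all genes. The medians after sham and after UVA were -0.40 (0.757-fold) and -0.33 (0.798-fold), each with all 36 members lower by sign (50.3% and 54.7% of all genes) and 0 past the adjusted threshold with or without the block (0% of all genes called). At an unadjusted p below 0.05 with the block, 17 members were lower after sham (2.38% of all genes) and 7 after UVA (2.11%). Without the block the averaged median depended on single arrays, because leaving one out unbalances the numbers between the genotypes. It was 0.33 without WT sham of number 2, 0.27 without WT UVA of number 2, 0.19 without KO sham of number 1 and 0.13 without KO UVA of number 1. It was -1.04 without WT sham of number 1, -0.94 without WT UVA of number 1, -0.90 without KO sham of number 2 and -0.82 without KO UVA of number 2. With the block, leaving out an array in turn gave -0.49 to -0.25.

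In number 2, where the members differed between genotypes, the fibroblast markers differed too: their median KO minus WT difference was 1.07 there and -0.05 in number 1. Their summed intensity in number 2 was 11595 and 10199 in WT and 23609 and 21912 in KO, for sham and UVA. With the block, 6 of the 13 were higher and 1 lower at an unadjusted p below 0.05. By that count 4.93% of all genes were higher and 3.95% lower, beside which the marker counts that follow are to be read. The melanocyte markers differed by 0.01 in number 1 and -0.34 in number 2 (4 of 12 lower with the block by that count). The Schwann cell markers went the other way, with a median of 0.40 in number 1 and 0.21 in number 2. Their sums in number 1 were 6989 and 7220 in WT and 8602 and 8279 in KO, and Ngfr read 286 and 197 in WT and 657 and 447 in KO there. In number 2 the sums of these markers were nearly level between genotypes, at 9687 and 8942 in WT and 9722 and 9114 in KO. With the block 2 of 7 were higher. Of the endothelial markers 2 of 8, Kdr and Cdh5, were higher and 1, Vwf, lower, with medians of 0.04 in number 1 and 0.10 in number 2. The summed intensity of 8 measured myeloid markers was 1076 to 1376 in WT, 1247 and 1251 in KO of number 1, and 2674 and 2453 in KO of number 2. Lyz2, a lysozyme, made up most of the last 2 sums (1717 and 1554), while the defining marker Ptprc read 29 to 34 on all arrays. The medians of the keratinocyte, mast cell, myeloid and skeletal muscle lists lay between -0.08 and 0.10 in both numbers. The part of these cell types in the KO minus WT difference of the mitotic genes was not tested.

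**Figure D3:**
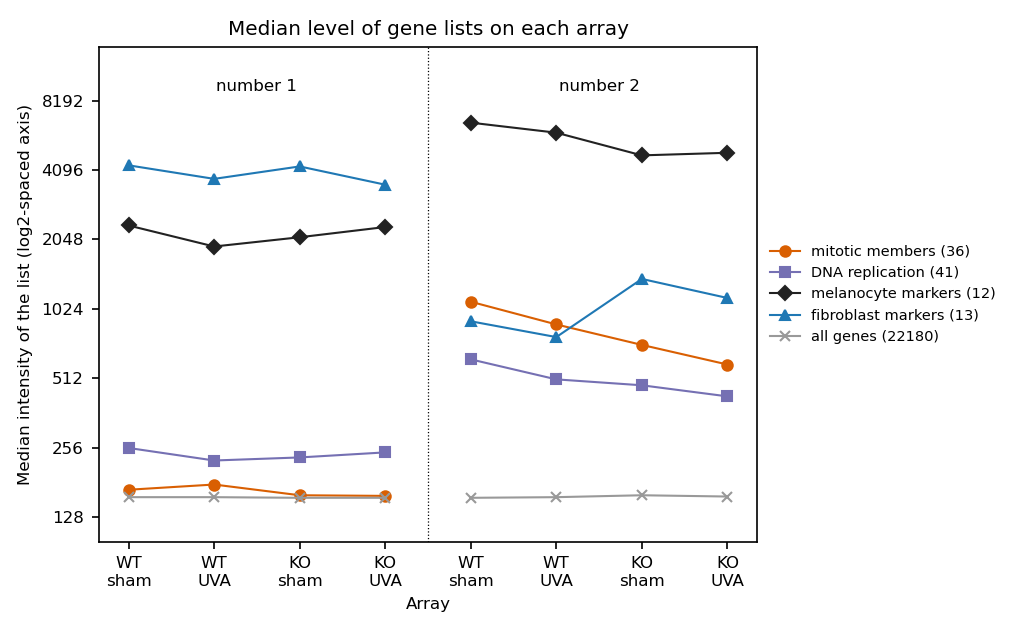
Median intensity of the 36 mitotic genes, 41 DNA replication genes, 12 melanocyte markers, 13 fibroblast markers and all 22180 genes on each of the 8 arrays, on a log2-spaced axis, with number 1 left of the dotted line and number 2 right of it. The median of the mitotic genes is higher on every array of number 2 than on any of number 1, and in number 2 it steps down from WT sham to KO UVA while the fibroblast median is higher in KO than in WT; heights of different lists are not comparable with each other.

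The treatment comparison asked what differed 6 h after the UVA-1 dose. Averaged over the genotypes, 32 members were lower and 4 higher after UVA than after sham (48.9% of all genes were lower), with a median of -0.12 log2 units, a ratio of 0.919. The median was -0.18 in WT (34 of 36 lower by sign; 46.5% of all genes) and -0.06 in KO (22 lower; 50.7%). No member passed limma's adjusted threshold in any of the 3 comparisons without a block (0% of all genes called), and 0 members had an unadjusted p below 0.05. A block for each genotype and number pairs every UVA array with the sham array of that genotype and number, though a shared culture is not stated. With this block 97 genes passed in the averaged comparison (0.239% of genes higher and 0.198% lower), and none of them was a member. At an unadjusted p below 0.05 that fit had 13 members lower (6.17% of all genes), and 11 in WT (4.14%) and 7 in KO (4.42%) when the genotypes were taken apart. The 13 were Ccna2, Ccnb2, Plk1, Kif11, Kif20a, Kif4, Kif23, Nusap1, Ube2c, Cdc20, Anln, Ect2 and Smc2, which takes in 5 of the 6 cytokinesis genes and 0 of the 3 checkpoint genes.

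The largest treatment differences were those of Ccna2, Plk1, Kif23 and Ube2c, whose values on all arrays are given above for the first 3. All SEs and p-values in this paragraph are from the fit with genotype and number as a block. Ccna2 was lower after UVA in all 4 pairs, with ratios of 0.923 and 0.771 in WT and KO of number 1 and 0.749 and 0.727 in number 2. Its difference was -0.34 (SE 0.06, unadjusted p = 0.000665, adjusted p = 0.0709 with genotype and number as a block). Plk1 was also lower in all 4 pairs (-0.34, SE 0.08, adjusted p = 0.122), with its lowest ratio, 0.688, in WT of number 2. Kif23 differed by -0.32 (SE 0.10, adjusted p = 0.223) and had ratios of 0.969 and 0.844 in number 1 and 0.66 and 0.763 in number 2. Ube2c read 298, 231, 257 and 263 in number 1 and 2310, 1640, 1601 and 1317 in number 2. It was lower after UVA in 3 of 4 pairs, the other being KO of number 1 (-0.28, SE 0.07, adjusted p = 0.140). Ect2 gave -0.26 (SE 0.06, adjusted p = 0.101) and Anln -0.24 (SE 0.06, adjusted p = 0.138).

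Other members showed differences near 0 on average: 0.00 for Cdk1, Tpx2 and Cdca8, -0.01 for Bub1b and Mad2l1, -0.02 for Foxm1 and 0.01 for Nek2. Ncapd2 was higher after UVA on average (0.16, SE 0.14), from ratios of 1.56 and 1.28 in number 1 and 0.846 and 0.922 in number 2. UVA lay below sham in all 4 pairs for 13 members (9.08% of all genes). These were the 13 just named, with Birc5 in the place of Ube2c.

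Again the replicate numbers differed. In WT of number 2 all 36 members were lower after UVA, with a median ratio of 0.821 and a range from 0.601 for Kif2c to 0.973 for Nek2. In KO of number 2, 26 were lower, with a median of 0.9 and a range from 0.714 for Kif20a to 1.14 for Cenpf. In number 1 the medians were 0.97 in WT and 0.986 in KO, with 22 and 19 members lower. The limit of low signal in number 1 applies here too. UVA was lower than sham by 1.25-fold or more in number 2 for 16 members in WT (4.79% of all genes) and for 8 in KO (5.13%): Mki67, Ccna2, Plk1, Cenpe, Kif20a, Kif23, Ttk and Nuf2. Without a block the averaged median was 0.58 without WT sham of number 2, 0.49 without WT UVA of number 1, 0.42 without KO sham of number 2 and 0.38 without KO UVA of number 1, and it was -0.78 to -0.59 without any of the other 4 arrays. With the replicate block it was 0.04 without WT sham of number 2 and -0.25 to -0.04 without any other array. Fibroblast markers differed between UVA and sham by a median of -0.05 in number 1 and -0.13 in number 2, and melanocyte markers by -0.04 and -0.01. The medians of the other 6 marker lists lay between -0.10 and 0.08. Their part in the UVA difference of the mitotic genes was not tested.

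**Figure D4:**
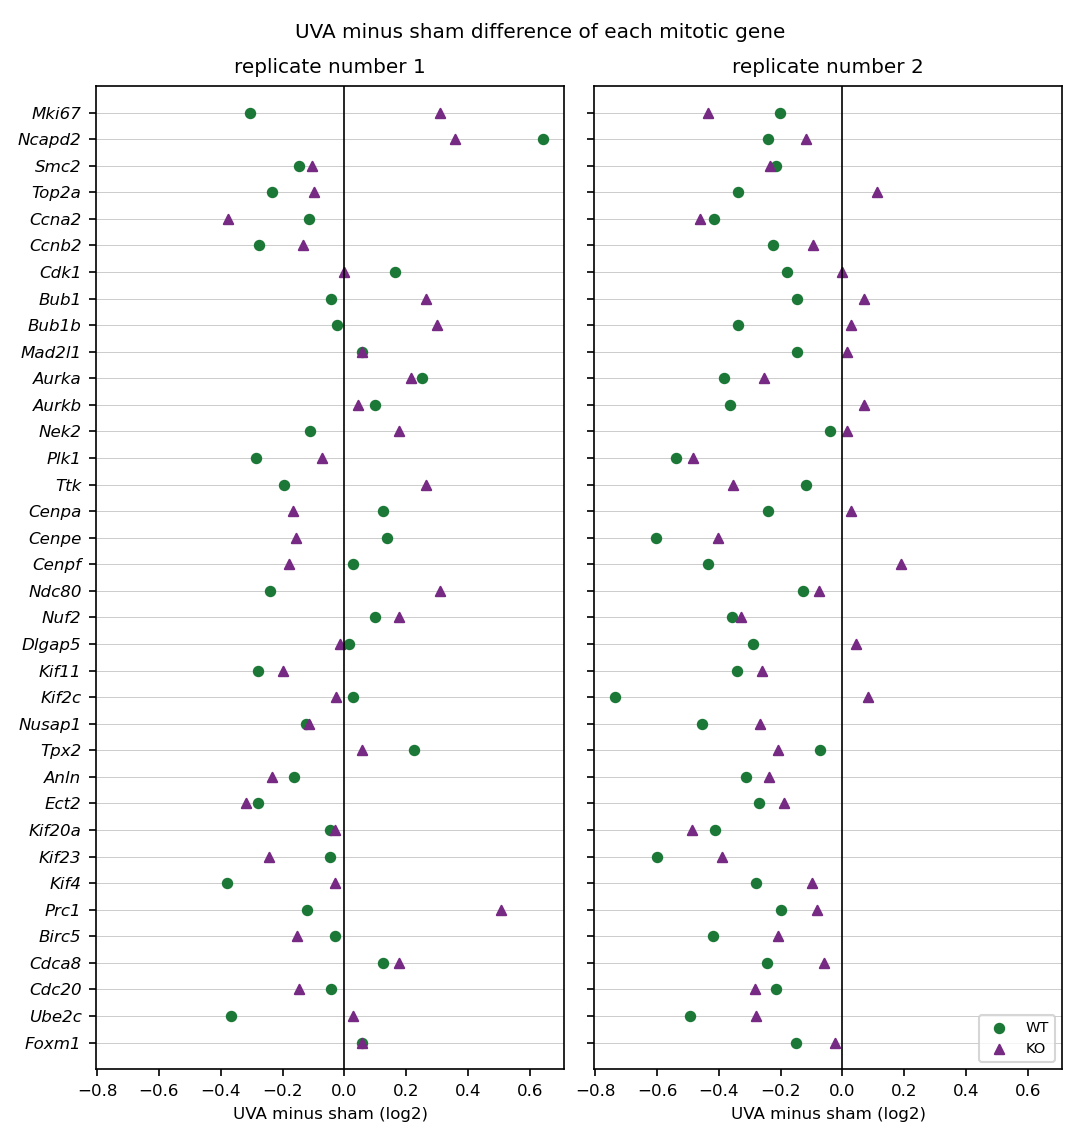
UVA minus sham difference of each of the 36 mitotic genes in log2 units, in replicate number 1 on the left and number 2 on the right, for WT (green circles) and KO (purple triangles), each from 1 array per treatment. In WT of number 2 all 36 points lie left of the zero line, and in KO of number 2, 26 do.

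Whether UVA acted differently in the 2 genotypes was tested by the interaction. Its median over the members was 0.09 log2 units (29 higher and 7 lower; 47.2% of all genes were higher), 0.01 in number 1 and 0.13 in number 2. No member and no other gene passed the adjusted threshold in the fit without a block or with either block (0% called). The smallest unadjusted p of a member was 0.0513, with genotype and number as a block, where the SEs were 0.10 to 0.27 log2 units. An interaction of the size of the median is therefore within 1 SE for every member.

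Combining genotype and treatment, WT sham was the highest of the 4 arrays for all 36 members in number 2 (23.7% of all genes) and for 18 in number 1 (21.7%). A full order from WT sham at the top through WT UVA and KO sham to KO UVA held for 24 members in number 2 (6.62% of all genes). In number 1 it held for 6 (3.39%): Ccna2, Plk1, Kif20a, Kif23, Cdc20 and Anln. Plk1 is not among the 24 of number 2, because its KO sham value exceeded its WT UVA value there.

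Other genes of the cell cycle, in 8 lists that hold none of the members, were set beside them. Of 30 further spindle motors and microtubule proteins, 29 were higher in number 2 past the test (median 1.71 log2 units), and KO minus WT was -0.06 in number 1 and -0.55 in number 2. Of 29 further kinetochore and checkpoint genes, 27 were higher in number 2 (median 1.25), with KO minus WT of -0.02 and -0.42. Of 41 DNA replication genes, which act before mitosis, 38 were higher in number 2 (median 0.96), with KO minus WT of -0.02 and -0.45. These 3 lists thus had medians of the same sign as the mitotic members, smaller in number 2 than the members' -0.59. For 18 cytokinesis genes the count higher in number 2 was 12 (median 0.63), for 19 genes of condensin, cohesin and chromosome structure 13 (0.43), for 28 of mitotic entry, exit and the anaphase-promoting complex 15 (0.37), and for 23 of MuvB, E2F and pocket protein regulators 12 (0.33). Their KO minus WT medians in number 2 were -0.24, -0.19, -0.11 and -0.15, and in number 1 -0.02, 0.00, -0.04 and 0.05.

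The 7 CDK inhibitors, which brake the cycle, had a median of 0.03 between the numbers, with 3 higher in number 2 past the test (Cdkn2c by 1.58) and 1 lower (Cdkn1c, -2.40), and KO minus WT medians of 0.10 in number 1 and 0.06 in number 2. With the block, counts at an unadjusted p below 0.05 as lower in KO were 15 of 30 spindle genes, 8 of 29 kinetochore genes, 14 of 41 replication genes, 5 of 18 cytokinesis genes and 4 of 19 chromosome structure genes, against 3.95% of all genes. They were 4 of 28 entry and exit genes, 1 of 23 MuvB and E2F genes and 0 of 7 inhibitors, of which 2, Cdkn2a and Cdkn2b, were higher (4.93% of all genes were higher). No gene of the 8 lists passed the adjusted threshold in that fit.

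The gene of each list with the largest averaged KO minus WT difference was also read on all arrays. All adjusted p-values in this paragraph are from the fit with the block. The kinesin Kif20b read 71, 80, 55 and 59, then 379, 286, 193 and 210 (-0.56, adjusted p = 0.356 with the block). Sgo1, which protects centromeric cohesion, read 67, 69, 43 and 58, then 380, 324, 234 and 181 (-0.61, adjusted p = 0.413). For both, every KO array was below both WT arrays of its number. Prim1, the primase subunit that starts DNA strands, read 73, 99, 87 and 63, then 493, 351, 257 and 215 (-0.51, adjusted p = 0.545). Its number 1 arrays overlapped between genotypes and its number 2 arrays did not. Cdkn2a, which encodes the inhibitor p16, read 1003, 938, 1086 and 1000, then 729, 673, 1046 and 1101 (0.36, adjusted p = 0.517). It was the only one of these 8 genes with KO above WT, and the WT arrays of number 2 were its lowest. Cdc25c, the phosphatase that activates Cdk1, read 74, 67, 61 and 73, then 569, 441, 272 and 235 (-0.53, adjusted p = 0.547). Lmnb1, a nuclear lamin, read 301, 303, 279 and 226, then 585, 391, 314 and 264 (-0.50, adjusted p = 0.477). Both had the KO arrays of number 2 below the WT arrays, and in number 1 this held for Lmnb1 alone. Shcbp1, a midbody protein, read 50, 42, 34 and 38, then 350, 273, 220 and 182 (-0.49, adjusted p = 0.356). E2f7, a repressor of E2F targets, read 137, 142, 135 and 141, then 648, 572, 399 and 339 (-0.37, adjusted p = 0.565). Shcbp1 was lower in KO in both numbers, whereas the number 1 arrays of E2f7 overlapped.

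**Figure D5:**
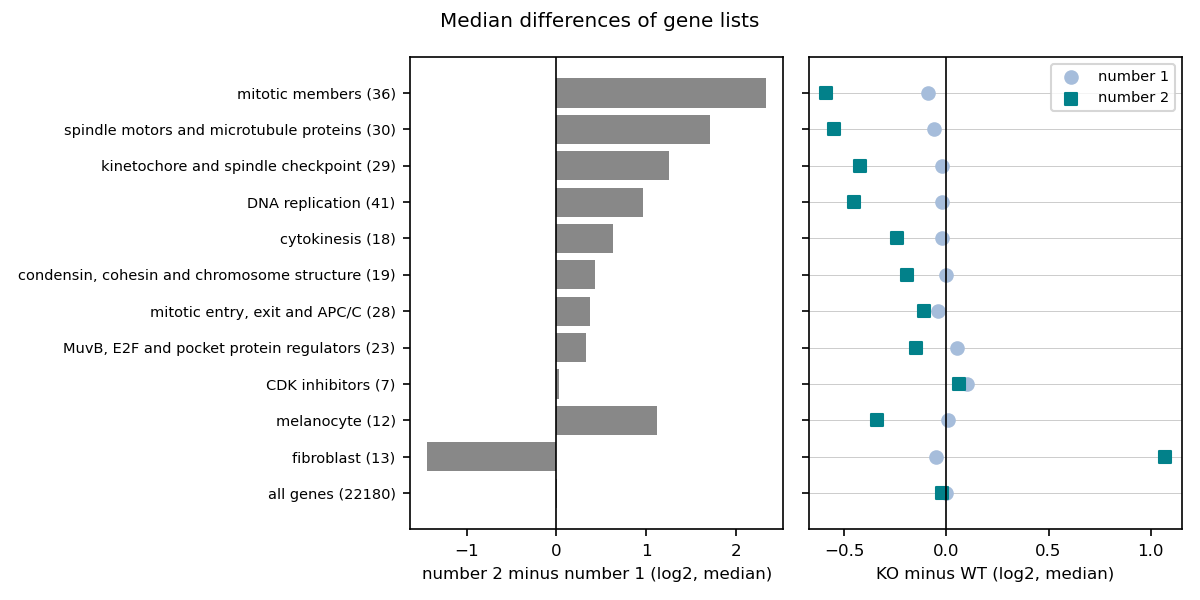
Median log2 difference of the mitotic members, the 8 other cell cycle lists, melanocyte and fibroblast markers and all genes, with the number of measured genes in brackets: number 2 minus number 1 as bars on the left, and KO minus WT averaged over treatments on the right for number 1 (circles) and number 2 (squares). In number 2 the mitotic members have the lowest KO minus WT median shown (-0.59) and the fibroblast markers the highest (1.07), and in number 1 the medians of the lists drawn lie between -0.09 and 0.10.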

How the data were processed

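8 RNA samples of cultured mouse melanocytes were read on 1-colour Affymetrix arrays. Groups and replicate numbers come from the sample titles. Each array was deposited by the authors as 1 intensity for every probe set, made by RMA (background correction, quantile normalization and probe summary) in Affymetrix Expression Console 1.3.1.187, per the submitters' processing notes; neither annotation version nor genome build is named there. The deposited intensity values are linear and whole, lie between 7 and 22585, and were turned into log2 before testing, since the planned tests assumed a log2 scale. RMA equalizes the arrays, so a change shared by most transcripts would not be seen, and rounding coarsens dim values. Precision is limited by having 2 arrays per group.

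Of 41345 probe sets, 23521 had 1 gene symbol, 1814 several and 16010 none. The brightest probe set stood for each of the 1082 genes with more than 1, which gave 22180 genes. No measured member had more than 1, and all 36 matched RefSeq by Entrez identifier with the same symbol. A mean per group was fitted over all 8 arrays with limma 3.58.1 in R 4.3.3 (eBayes with its intensity trend, two-sided, 4 residual degrees of freedom), with Benjamini-Hochberg adjustment over the 22180 genes and a threshold of 0.05. Every adjusted p-value in the text is from limma; "with the block" means the replicate number as a block (3 degrees of freedom), and "genotype and number as a block" leaves 2. Nothing in the labels ties the duplicates to separate animals, so p-values measure only the spread between these samples. The script was tested on simulated data.

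Pairing by number was examined ahead of the calls. Across the 6 group pairs, same-numbered arrays deviated from their means together (r from 0.799 to 0.916), and the leading principal component (77.7% of variance) split number 1 from number 2. Numbers were therefore treated as pairs in the blocked fits and in the values within a number, a choice resting on these data and the titles. The fit planned as the main one had no block and did not use the pairing.

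The members, the 8 lists of other cell cycle genes and the 8 lists of cell type markers were chosen with earlier results of these data known. Values on all arrays were given for the 6 members with the largest and the 3 with the smallest averaged genotype difference, the 4 with the smallest blocked p, the 4 with the largest treatment difference, Mki67 and Foxm1, and for the gene of each cell cycle list with the largest genotype difference; further members with such values were added for their role, after the values were seen. Alternatives were the blocks, median centring, quantile normalization again, a minimum mean log2 value of 6, log2(value + 16), the mean of a gene's probe sets, eBayes without a trend, each array left out, sham and UVA arrays averaged and each number alone. Added after the data were seen were the comparison of the numbers and leaving out arrays with the replicate block.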

Additional observations from a re-analysis of the deposited data

Results flagged for a closer look

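For 3 of the 36 members (8.33%), UVA and sham differed in opposite directions in WT and KO in both replicate numbers, as they did for 1653 of all genes (7.45%), so the share among the members is near that of the array. Bub1, the checkpoint kinase, differed between UVA and sham by -0.04 and -0.15 log2 units in WT (numbers 1 and 2) and by 0.26 and 0.07 in KO, so that the mean KO minus WT difference of the UVA response was 0.26. Bub1b, the BubR1 gene, differed by -0.03 and -0.34 in WT and by 0.30 and 0.03 in KO, a difference of 0.35. Nek2, the centrosome kinase, differed by -0.11 and -0.04 in WT and by 0.18 and 0.02 in KO, a difference of 0.17. These directions were picked out by sign and not tested on their own; the interaction fitted over all genes with limma gave an adjusted p of 1 for each of the 3. Groups of 2 arrays are too small for a test of single outlying arrays.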

How the results depend on the processing

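The replicate numbers pair the arrays, and fitting the number as a replicate block changed no call of a member: 0 passed with or without it in the 7 comparisons of genotype and treatment, and 0 under every other alternative run. The block raised the count of all genes past the test from 0 to 7 for KO against WT averaged, to 3 for UVA against sham averaged, to 1 in WT and to 2 in KO. Genotype and number as a block gave 97, 12 and 2 for UVA averaged, in WT and in KO. Centring, quantile normalization, log2(value + 16), the dim filter, the mean of probe sets and eBayes without a trend turned neither the members' median of any comparison nor any of the single genes named below.

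Leaving out 1 array unbalances the numbers and so moves every unblocked value. The members' median then ran from -1.04 to 0.33 for KO against WT averaged (-0.49 to -0.25 with the block), -1.8 to 0.95 after sham, -1.54 to 0.96 after UVA, -0.78 to 0.58 for UVA averaged (-0.25 to 0.04 with the block), -1.64 to 1.24 in WT, -1.17 to 1 in KO, and -1.25 to 1.59 for the interaction. For number 2 against number 1 it was 2.15 to 2.49, with 36 members past the test each time and 4587 to 5521 genes in all. Single genes reversed in KO against WT averaged without the block: Anln -1.28 to 0.48, Aurkb -1.26 to 0.27, Birc5 -0.91 to 0.66 (-0.34 to 0.09 with it, where it was 0.03 and 0.01 without KO UVA or KO sham of number 2), Bub1 -1.42 to 0.45, Ccna2 -1.38 to 0.43, Cdc20 -1.08 to 0.07, Cenpa -0.88 to 0.09, Cenpe -0.92 to 0.60 (-0.39 to 0.06 with it), Foxm1 -0.94 to 0.18, Kif11 -1.35 to 0.44, Kif23 -1.33 to 0.28, Mad2l1 -0.78 to 0.39 and Mki67 -1.35 to 0.50. For UVA averaged they were Ccna2 -1.25 to 0.57, Kif23 -1.12 to 0.48, Plk1 -1.11 to 0.43 and Ube2c -1.02 to 0.46.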
